A study of Mus musculus with 46 samples.

Results

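The state of macrophages in MC-38 tumors was described through 10 genes, Adgre1, Cd68, Mrc1, Cd163, Folr2, Mertk, Trem2, Apoe, Spp1 and Gpnmb. They were chosen by name as markers of all macrophages or of named macrophage states, with earlier results of these data known. They make up 10 of the 48795 genes in the deposited table. Because of this choice, the share of them called beside that of all genes does not test the set. RNA-seq covered 46 bulk samples in 8 groups, taken from cultures of MC-38, a colon carcinoma line from the mouse, and from its tumors grown under the skin. The groups were 3 cultures of MC-38 cells, 3 baseline tumors without treatment, 5 tumors given isotype control and 5 given PD-1 Ab at day 4 after 1 dose, 5 and 5 such tumors at day 8 after 2 doses, and 10 WT tumors and 10 tumors labelled PD-1cKO at day 28. The PD-1 Ab was muDX400 at 5 mg/kg, given to WT C57/BL6NTac mice. Both day 28 groups received tamoxifen at 40 mg/kg, and the conditional knockout carried PD-1 fl/fl alleles with a Rosa26 creERT2 driver. The mice were 8 to 10 weeks old and female according to the methods of the study, which place the last groups at another day than the labels do. A figure legend of the study gives the last groups the same day as the labels, counted from tumor implant. By the dosing schedule, the labels of the antibody groups count days from the first dose. The days of the antibody groups and of the last groups therefore have different starting points, and their labels cannot be subtracted. The Rosa26 locus is active in most cell types, so the driver does not limit the deletion to T cells, and whether the tumor macrophages of the conditional knockout mice carried it was not tested.

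Tumor macrophages arise largely from blood monocytes and are recognized in mice by the surface receptor F4/80, the product of Adgre1, and by the lysosomal protein CD68. Some macrophages of connective tissue carry scavenger and endocytic receptors such as MRC1, CD163 and FOLR2. Macrophages loaded with lipid and cell debris carry the lipid receptor TREM2 and the glycoprotein GPNMB, and secrete the lipid carrier APOE and osteopontin (Spp1). MERTK is the receptor tyrosine kinase through which macrophages take up apoptotic cells. Several of these proteins are also made by other cells, including carcinoma cells, so in bulk tumor RNA each level is a sum over all cells of the piece.

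Values are FPKM, a measure that corrects fragment numbers for the length of the transcript and the size of the library, so levels of different genes can be set side by side. All 10 genes were found by symbol and identifier and all passed the filter on low values in each comparison. On mouse build GRCm38, Adgre1 (ENSMUSG00000004730) lies on chromosome 17 from 57358691 to 57483527 and Cd68 (ENSMUSG00000018774) on chromosome 11 from 69664213 to 69666153. Trem2 (ENSMUSG00000023992) lies on chromosome 17 from 48346401 to 48354147, Apoe (ENSMUSG00000002985) on chromosome 7 from 19696109 to 19699188, Gpnmb (ENSMUSG00000029816) on chromosome 6 from 49036546 to 49070929 and Spp1 (ENSMUSG00000029304) on chromosome 5 from 104435118 to 104441050. Mrc1 (ENSMUSG00000026712) lies on chromosome 2 from 14229392 to 14332057, Cd163 (ENSMUSG00000008845) on chromosome 6 from 124304656 to 124330527, Folr2 (ENSMUSG00000032725) on chromosome 7 from 101839988 to 101857194 and Mertk (ENSMUSG00000014361) on chromosome 2 from 128698956 to 128802894. Of the 50-base stretches of Spp1 transcripts, 11.6% also occur in the predicted gene Gm42793, so part of its fragments could be split. That share was 0.0726% for Cd163 and 0 for the other 8 genes.

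RefSeq promoter sequences of build GRCm38.p6 matched 9 of the 10 genes. The 250 bases before the start are shown for Cd68, Trem2, Apoe and Gpnmb, because these 4 genes were higher together in tumors labelled PD-1cKO. Capitals mark matches on either strand to the core of PU.1 sites (GAGGAA), the E-box bound by MiT/TFE factors (CACGTG), the AP-1 site (TGANTCA) and the STAT site GAS (TTCNNNGAA), and no marked matches overlap each other.
Cd68 promoter, chr11:69666171-69666420, minus strand: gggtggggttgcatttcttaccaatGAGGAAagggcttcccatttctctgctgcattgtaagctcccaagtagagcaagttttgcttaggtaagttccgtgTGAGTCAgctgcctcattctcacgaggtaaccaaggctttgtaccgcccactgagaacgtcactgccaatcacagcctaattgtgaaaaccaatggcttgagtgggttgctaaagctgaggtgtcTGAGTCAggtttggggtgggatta
Trem2 promoter, chr17:48346151-48346400, plus strand: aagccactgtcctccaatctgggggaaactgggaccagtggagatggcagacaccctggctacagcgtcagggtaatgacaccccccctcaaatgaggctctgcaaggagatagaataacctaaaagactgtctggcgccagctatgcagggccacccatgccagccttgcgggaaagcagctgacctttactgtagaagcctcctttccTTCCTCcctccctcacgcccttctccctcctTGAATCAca
Apoe promoter, chr7:19699189-19699438, minus strand: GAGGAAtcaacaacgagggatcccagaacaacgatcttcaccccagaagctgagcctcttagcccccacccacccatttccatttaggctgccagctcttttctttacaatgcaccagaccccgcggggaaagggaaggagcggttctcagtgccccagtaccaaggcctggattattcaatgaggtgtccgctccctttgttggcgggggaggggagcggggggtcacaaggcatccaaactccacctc
Gpnmb promoter, chr6:49036268-49036517, plus strand: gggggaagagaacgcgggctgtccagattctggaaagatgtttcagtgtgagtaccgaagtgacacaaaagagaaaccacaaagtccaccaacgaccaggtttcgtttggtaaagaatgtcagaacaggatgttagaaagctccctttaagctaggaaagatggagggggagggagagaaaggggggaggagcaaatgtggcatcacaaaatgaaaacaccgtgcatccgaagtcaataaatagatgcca

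A GAGGAA match was present once in the Cd68, Trem2 and Apoe windows and absent from the Gpnmb window. Among members whose windows are not shown, it occurred 3 times before Mrc1 and once before Spp1. It was absent before Cd163, Folr2 and Mertk. TGANTCA occurred 2 times before Cd68 and once before Trem2. In all 27025 promoter windows of this length, 23.1% held GAGGAA, 6.85% held TGANTCA, 6.04% held CACGTG and 7.14% held TTCNNNGAA. The matches are letters in a window, and binding of a factor was not measured.

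2 properties of the libraries touch the values. Isotype control replicate 1 after 1 dose had 54.6% of its FPKM in mitochondrial genes, against 3.45% to 4.31% in the other 4 tumors of its group. Short noncoding RNAs held 30.2% to 66.5% of the FPKM in the 20 tumors of day 28, against at most 0.0746% in the other samples, so FPKM levels of the day 28 groups are not on the scale of the antibody groups. The share also varied within day 28, from 31.1% to 66.5% in tumors labelled PD-1cKO and from 30.2% to 54.6% in WT tumors. Gene-level Pdcd1, the targeted gene, was 5.05 to 19.9 FPKM (median 8.29) in tumors labelled PD-1cKO and 1.71 to 7.02 FPKM (median 3.01) in WT tumors. A level that also counts the exons outside the deleted part did not check the label, so the group carries its label in the text below.

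MC-38 cells in culture separated the 10 genes by whether the carcinoma cells themselves carried the transcript. Adgre1 and Trem2 were listed at 0 in all 3 cultures, and Mrc1 was at 0.0538, 0.0263 and 0.0419 FPKM. In contrast, Spp1 was at 399, 393 and 409 FPKM and Gpnmb at 141, 143 and 137 FPKM in the cultures. No tumor reached the culture levels of Spp1, and 3 tumors, all labelled PD-1cKO and so on the other scale, exceeded those of Gpnmb. Mertk was at 6.98, 7.32 and 6.38 FPKM in culture. The mean level in culture was 504% of that in isotype control tumors after 2 doses for Gpnmb, 185% for Spp1 and 53.4% for Mertk, but at most 9.92% for the other 7 genes. The T cell markers Cd3e, Cd3d and Cd3g were listed at 0 in all 3 cultures, and the 6 T cell markers summed to 0.0121 to 0.0503 FPKM there.

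Isotype control tumors after 2 doses were set against the cultures to measure how tumors differ from the cultured line. These control tumors also serve the comparison with PD-1 Ab after 2 doses, the comparison with baseline and the contrast of the models, so those results share 5 samples. Of the 10 genes, 7 were called higher, among them Adgre1 and Trem2, for which no fold is given because the cultures were listed at 0, and Gpnmb was called lower, at an adjusted p under 0.01 and at least 2-fold in limma, while 14.2% of 15199 tested genes were called higher and 7.09% lower. Cd68 rose from 1.06 to 53.4 FPKM (log2 difference 5.55, SE 0.19, adjusted p = 2.3e-08) and Apoe from 2.83 to 602 FPKM (7.67, SE 0.14, adjusted p = 7.35e-10). Gpnmb fell from 141 to 27.9 FPKM, a log2 difference of -2.35 (SE 0.15, adjusted p = 1.87e-06). Spp1 went from 401 to 216 FPKM and Mertk from 6.90 to 12.9 FPKM, with adjusted p-values of 0.00091 and 0.00382 but log2 differences of -0.91 (SE 0.15) and 0.87 (SE 0.18) that did not reach 2-fold. In baseline tumors none of the 10 genes was called against isotype control tumors after 2 doses (0.595% of 14967 genes were called by limma, and 2647 had an unadjusted p under 0.05), and the largest shift by adjusted p was that of Mrc1, from 3.93, 3.85 and 6.45 FPKM at baseline to 7.31 to 10.7 FPKM (-0.92, SE 0.20, adjusted p = 0.0428).

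**Figure D1:**
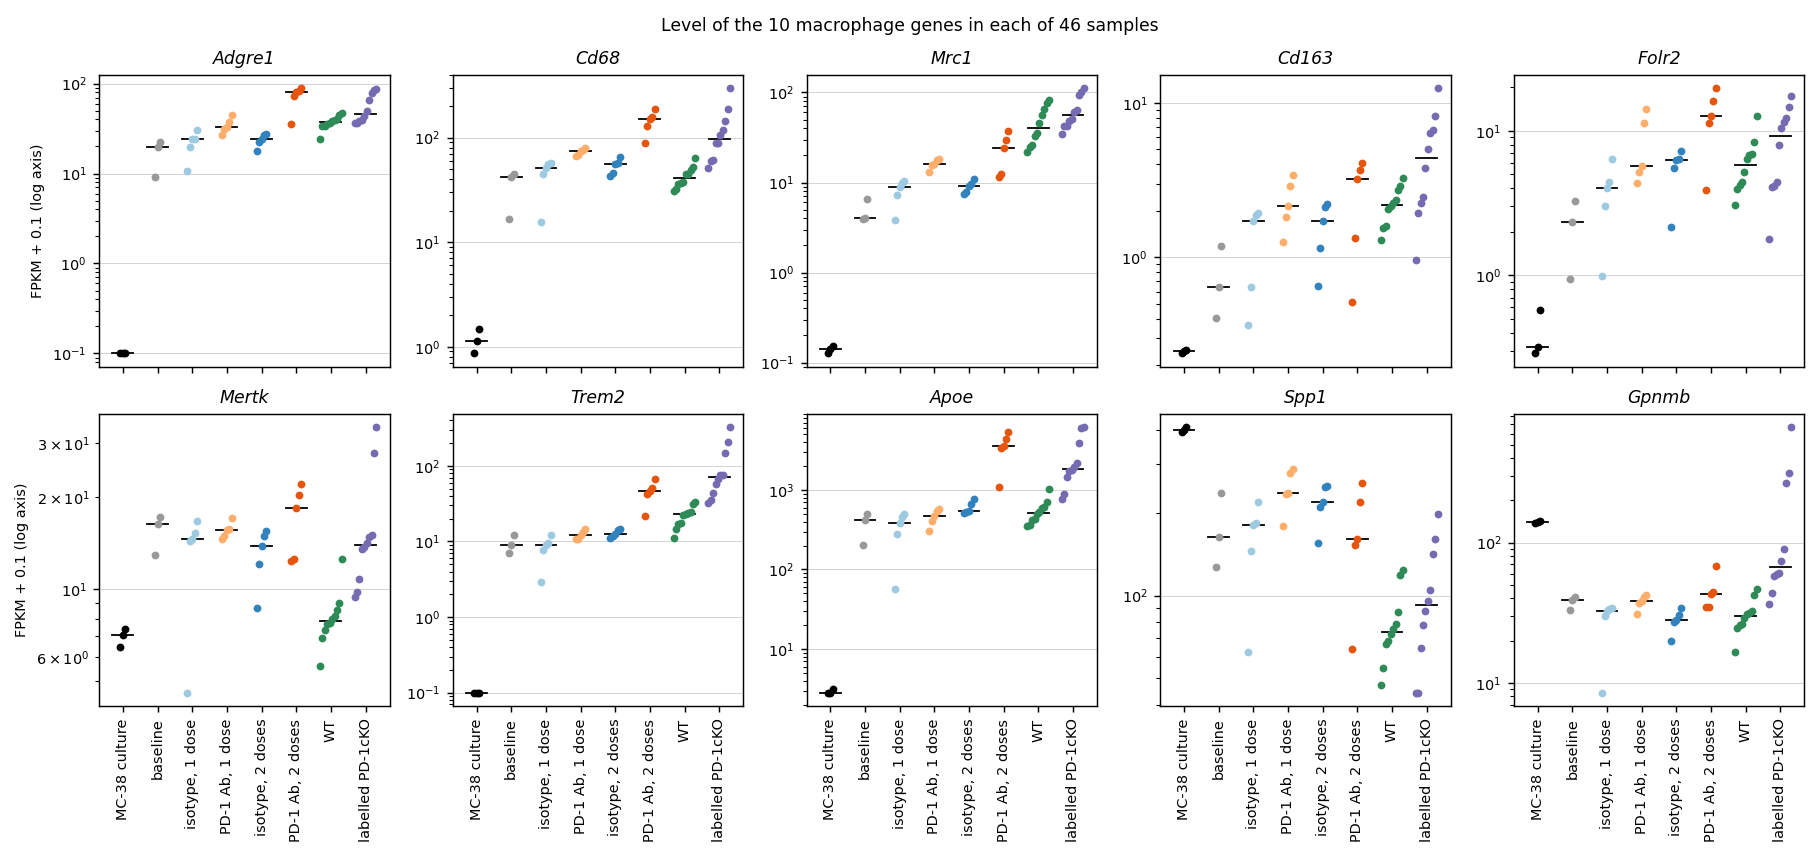
Level of each gene in each of the 46 samples, as FPKM + 0.1 on a log axis, with 1 point per sample and a bar at the median of the group. Spp1 and Gpnmb are the genes with high levels in MC-38 culture, Adgre1 and Trem2 sit at the floor there, and Apoe after 2 doses of PD-1 Ab (1100 to 5335 FPKM) lies above every tumor of the baseline group and the other antibody groups, while the day 28 groups are on another scale.

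Among the 6 groups that share a scale, the PD-1 Ab-treated tumors after 2 doses had the highest mean for 8 of the 10 genes, with Adgre1 at 72.6, Cd68 at 142, Mrc1 at 22.9, Cd163 at 2.46, Folr2 at 12.7, Mertk at 17.1, Trem2 at 45.7 and Apoe at 3546 FPKM. Spp1 and Gpnmb had their highest mean in culture, at 401 and 141 FPKM. The day 28 groups are on another scale, so their place among the other groups is not a comparison. Their means were 65.0 FPKM in tumors labelled PD-1cKO and 46.6 FPKM in WT tumors for Mrc1, 4.92 and 2.11 FPKM for Cd163, 107 and 21.8 FPKM for Trem2 and 167 and 30.6 FPKM for Gpnmb. When all 8 groups were put in the order of their means as deposited, across both scales, neighbours overlapped in their ranges for 5 of 7 pairs in Cd68, Mrc1 and Apoe, for 6 of 7 in Adgre1, Cd163, Folr2, Trem2, Spp1 and Gpnmb, and for 7 of 7 in Mertk. Apoe was the most abundant of the 10 transcripts in every tumor group, and its mean level was the 4th of all genes after 2 doses of PD-1 Ab, against rank 118 in the isotype control tumors.

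After 1 dose of PD-1 Ab, at day 4, all 10 genes had higher means than in isotype controls, and none passed the test. Mrc1, the mannose receptor, was at 3.76, 10.2, 7.13, 8.87 and 9.66 FPKM in the isotype control tumors and at 12.9, 17.6, 15.9, 18.0 and 15.6 FPKM in the PD-1 Ab-treated tumors. The groups did not overlap for Mrc1. Cd68 was at 15.4, 55.7, 51.3, 56.7 and 44.8 FPKM in the controls and at 66.3, 75.9, 74.4, 68.7 and 78.7 FPKM after PD-1 Ab, likewise without overlap. The share of all genes whose groups separate in this way was not counted, here or in the later comparisons, so lack of overlap only describes the values. The log2 differences were 1.08 (SE 0.27, adjusted p = 0.283) for Mrc1 and 0.83 (SE 0.32, adjusted p = 0.694) for Cd68, and those of the other 8 genes ran from 0.38 for Mertk to 1.19 for Folr2. The median of the 10 genes was 0.74, against 0.26 over all 14556 genes. limma called 0 genes of all 14556 (0%), while 895 had an unadjusted p under 0.05.

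The library with the high mitochondrial share, isotype control replicate 1, was the lowest of its group for each of the 10 genes. Without it the log2 differences were smaller, at 0.83 for Mrc1 (adjusted p = 0.019), 0.48 for Cd68 (adjusted p = 0.029), 0.19 for Apoe, 0.21 for Gpnmb and 0.04 for Mertk, and again none was called. Relative to Adgre1 none of the 9 other genes was called after 1 dose (0.0137% of 14555 genes were called by limma in either direction, and 6752 had an unadjusted p under 0.05). The ratio of Apoe to Adgre1 was 5.47, 21.2, 16.1, 15.1 and 14.1 in controls and 17.5, 13.01, 12.9, 9.23 and 14.9 after PD-1 Ab, a log2 difference of 0.01 (SE 0.31). Trem2 stood at 0.370 of Adgre1 in controls and 0.357 after PD-1 Ab on average, a log2 difference of -0.03 (SE 0.20).

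After 2 doses of PD-1 Ab, at day 8, both general macrophage genes and 2 of the lipid-associated genes rose. Mrc1, Cd163, Folr2, Mertk, Spp1 and Gpnmb were not called. Adgre1 was at 24.0, 22.4, 17.8, 27.5 and 26.5 FPKM in isotype control tumors and at 73.3, 83.1, 81.6, 89.7 and 35.4 FPKM in PD-1 Ab-treated tumors. Cd68 was at 46.1, 43.1, 56.7, 56.3 and 64.6 FPKM in controls and 128, 186, 158, 150 and 87.7 FPKM after PD-1 Ab. Neither gene overlapped between the groups, and PD-1 Ab replicate 5 was the treated tumor nearest to the controls in both. Adgre1 rose by 1.56 on the log2 scale (SE 0.23, adjusted p = 0.00147) and Cd68 by 1.38 (SE 0.19, adjusted p = 0.00106). In bulk tissue, fewer or more macrophages and less or more RNA per macrophage cannot be told apart.

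Trem2, the receptor for lipids and lipoproteins on macrophages, was at 11.6, 11.0, 12.3, 14.1 and 14.4 FPKM in controls and at 42.6, 67.1, 50.3, 46.7 and 21.8 FPKM after PD-1 Ab. Apoe, a lipoprotein that TREM2 can bind, was at 507, 546, 535, 665 and 759 FPKM in controls and at 3326, 5335, 4355, 3614 and 1100 FPKM after PD-1 Ab. The groups were separate for both genes, with replicate 5 again the lowest treated tumor. Trem2 rose by 1.76 (SE 0.24, adjusted p = 0.00106) and Apoe by 2.40 on the log2 scale (SE 0.35, adjusted p = 0.00136), a 5.28-fold difference. Thus 4 of the 10 genes were called higher after 2 doses, beside 5.03% of the 15062 genes tested, and none was called lower. The median log2 difference was 1.18 over the 10 genes and -0.04 over all genes tested.

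The 3 scavenger and endocytic receptors, Mrc1, Folr2 and Cd163, had higher means without passing the test. Mrc1 was at 7.31 to 10.7 FPKM in controls and at 23.9, 37.7, 29.4, 12.3 and 11.5 FPKM after PD-1 Ab. All 5 treated tumors were above every control, with replicates 4 and 5 just above them, and the log2 difference was 1.22 (SE 0.30, adjusted p = 0.0153). Folr2, a folate receptor of tissue macrophages, was at 6.30, 7.16, 6.22, 2.06 and 5.40 FPKM against 16.0, 19.7, 12.5, 11.2 and 3.81 FPKM (1.14, SE 0.43, adjusted p = 0.0741). Cd163, the hemoglobin-haptoglobin receptor, had levels of 0.547 to 2.12 FPKM in controls and 0.412 to 3.95 FPKM after PD-1 Ab, with 3 treated tumors above every control and 1 below (0.49, SE 0.56, adjusted p = 0.543).

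Mertk, Gpnmb and Spp1, the genes with the highest share of their tumor level in culture, were not called. Mertk was at 15.4, 13.7, 8.55, 12.0 and 14.9 FPKM in controls and at 18.3, 22.0, 20.3, 12.5 and 12.3 FPKM after PD-1 Ab (0.39, SE 0.21, adjusted p = 0.181). Gpnmb was at 27.3, 27.8, 30.6, 19.7 and 33.9 FPKM against 34.5, 68.6, 44.4, 34.6 and 42.9 FPKM, without overlap but with a log2 difference of 0.66 (SE 0.20, adjusted p = 0.0304). Spp1 was at 247, 209, 250, 155 and 219 FPKM in controls and at 152, 218, 161, 63.8 and 256 FPKM after PD-1 Ab (-0.47, SE 0.31, adjusted p = 0.285). Spp1 was the only 1 of the 10 genes with a lower mean after 2 doses. Replicate 5 of the PD-1 Ab group held the lowest value of the group in 8 of the 10 genes, but for Spp1 it held the highest.

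Relative to Adgre1, the log2 difference of each gene after 2 doses was its level difference less the 1.56 of Adgre1. The gaps between the genes were therefore those of the levels. The ratio to Adgre1 was taken within each tumor, which cancels the scale of a library, and a gene that does not follow Adgre1 falls by this measure when Adgre1 rises. Of 15061 genes, 79.3% were called lower and 0.418% higher relative to Adgre1, and the median of all genes was -1.60. Against this, 2 of the 9 genes were called lower and none higher, a smaller share than the background, and their median was -0.42. Mertk per Adgre1 was 0.641, 0.611, 0.481, 0.437 and 0.561 in controls and 0.250, 0.265, 0.248, 0.139 and 0.346 after PD-1 Ab. Spp1 per Adgre1 was 10.3, 9.33, 14.1, 5.65 and 8.25 in controls and 2.08, 2.63, 1.97, 0.711 and 7.23 after PD-1 Ab. All 5 treated tumors lay below every control for Mertk, and 4 of 5 did for Spp1, where replicate 5 lay within the controls. The log2 differences were -1.17 for Mertk (SE 0.29, adjusted p = 0.000716) and -2.03 for Spp1 (SE 0.42, adjusted p = 0.000108). Without PD-1 Ab replicate 4 the Mertk value was -0.98 (adjusted p = 0.0038), under the 2-fold limit. Without isotype control replicate 4, Cd163 (-1.41) and Gpnmb (-1.07) were called lower as well, which made 4 calls.

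Apoe was the gene that moved up against Adgre1 by most, with ratios of 21.1, 24.3, 30.1, 24.2 and 28.6 in controls and of 45.4, 64.2, 53.4, 40.3 and 31.0 after PD-1 Ab. The groups did not overlap, yet the log2 difference of 0.84 (SE 0.30, adjusted p = 0.0125) did not pass the test. Relative to Cd68 in place of Adgre1 it was 1.02 (adjusted p = 0.0006), a call. Trem2 per Adgre1 was 0.544 ± 0.0863 (SD, n = 5) in controls and 0.628 ± 0.108 (SD, n = 5) after PD-1 Ab, a log2 difference of 0.20 (SE 0.27, adjusted p = 0.497). Cd68 per Adgre1 was 2.30 ± 0.539 and 2.01 ± 0.337 (SD, n = 5 each), a log2 difference of -0.18 (SE 0.28).

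**Figure D2:**
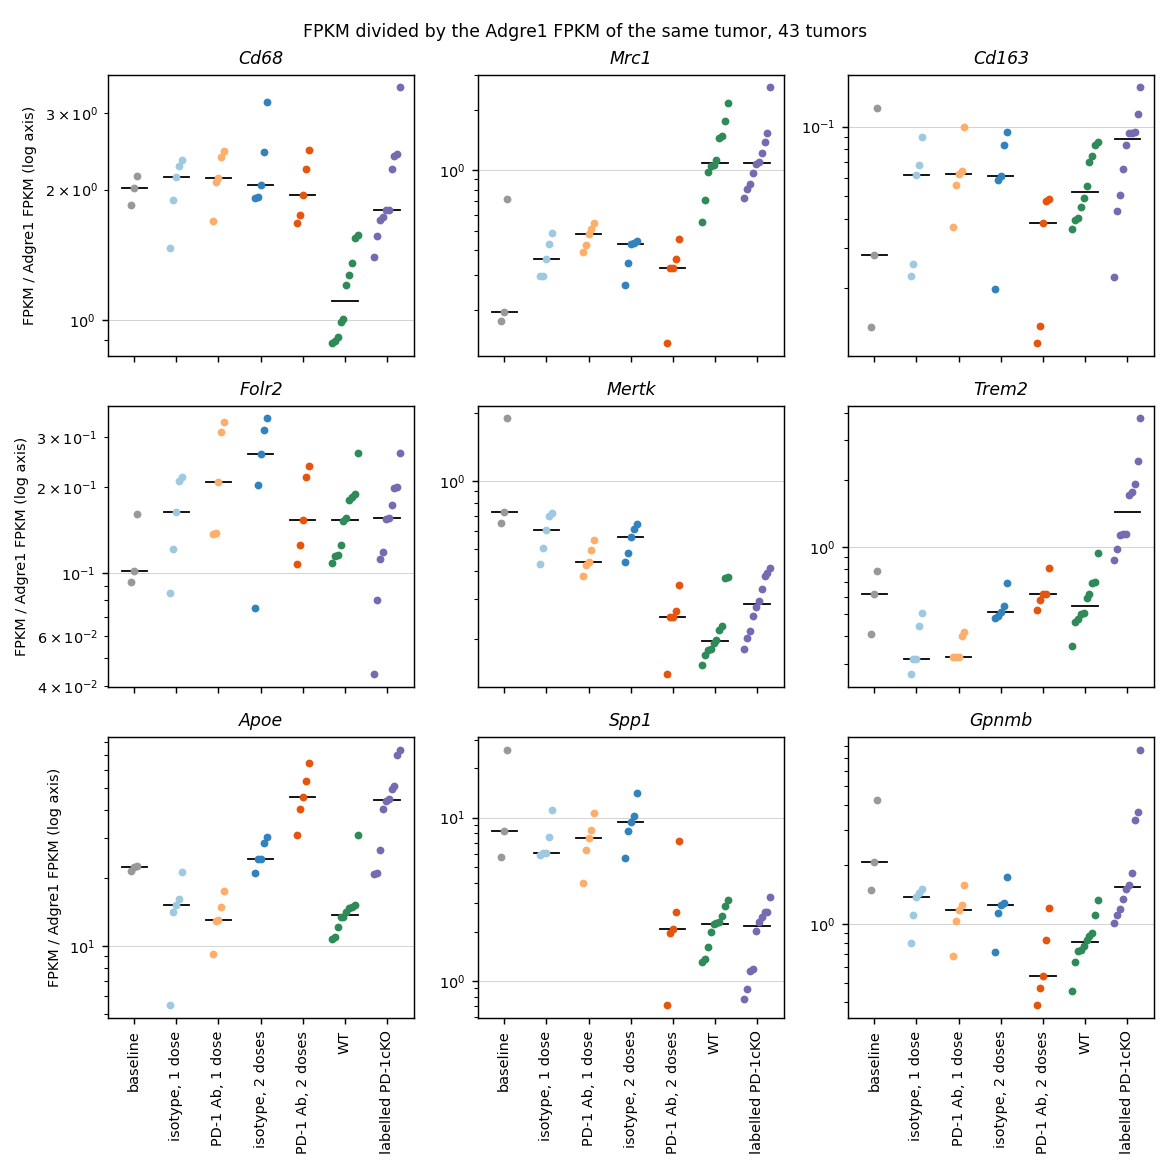
FPKM of 9 genes divided by the Adgre1 FPKM of the same tumor on a log axis, with 1 point per tumor and a bar at the group median. Apoe per Adgre1 lies at 31.0 to 64.2 after 2 doses of PD-1 Ab and 21.1 to 30.1 in its controls, while Trem2 per Adgre1 lies at 0.871 to 3.76 in the 10 tumors labelled PD-1cKO and at 0.362 to 0.937 in WT tumors.

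In tumors labelled PD-1cKO, Cd68 and 3 of the lipid-associated genes rose against WT tumors, and Adgre1 was not called. Adgre1 was at 23.8 to 47.3 FPKM (median 37.0) in 10 WT tumors and at 35.9 to 86.8 FPKM (median 46.4) in 10 tumors labelled PD-1cKO. The groups overlapped, with 5 of the 10 tumors labelled PD-1cKO above every WT tumor, and the log2 difference was 0.52 (SE 0.18, adjusted p = 0.0251). Cd68 was at 30.5 to 64.2 FPKM (median 41.1) in WT tumors and at 51.0 to 299 FPKM (median 96.7) in tumors labelled PD-1cKO. It rose by 1.32 on the log2 scale (SE 0.26, adjusted p = 0.00133), with 7 of 10 tumors above every WT tumor.

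Trem2 was at 11.0 to 33.0 FPKM (median 22.9) in WT tumors and at 31.7 to 327 FPKM (median 71.8) in tumors labelled PD-1cKO. Apoe was at 352 to 1034 FPKM (median 514) in WT tumors and at 764 to 6186 FPKM (median 1858) in tumors labelled PD-1cKO. Gpnmb, a transmembrane glycoprotein of lysosome-rich macrophages and melanocytes, was at 16.4 to 46.3 FPKM (median 30.0) and at 36.5 to 668 FPKM (median 67.1). The upper ends were far apart, since 9 of 10 tumors labelled PD-1cKO were above every WT tumor for Trem2 and 8 of 10 for Apoe and for Gpnmb. The log2 differences were 1.95 for Trem2 (SE 0.35, adjusted p = 0.00088), 2.02 for Apoe (SE 0.34, adjusted p = 0.000726) and 1.79 for Gpnmb (SE 0.42, adjusted p = 0.00359). In total 4 of the 10 genes were called higher beside 4.20% of 15075 genes, and none was called lower, beside 3.87% of all genes, with a median of 0.89 over the 10 genes and -0.20 over all genes.

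The other genes were not called. Mertk was at 5.49 to 12.4 FPKM (median 7.77) in WT tumors and at 9.35 to 33.9 FPKM (median 13.9) in tumors labelled PD-1cKO, a log2 difference of 0.90 (SE 0.20, adjusted p = 0.00279) that did not reach 2-fold. Median-of-ratios scaling shifted the differences of this comparison by 0.24, with which Mertk reached 1.15 and was called. Cd163 was at 1.20 to 3.16 FPKM and at 0.857 to 12.4 FPKM (0.88, SE 0.35, adjusted p = 0.0477). The log2 differences were 0.52 for Mrc1 (SE 0.27), 0.34 for Folr2 (SE 0.35) and 0.26 for Spp1 (SE 0.25), and their groups overlapped widely, as in Mrc1 with 21.9 to 83.2 FPKM in WT tumors and 34.9 to 113 FPKM in tumors labelled PD-1cKO.

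The range within the group labelled PD-1cKO was wider than in WT tumors for 9 of the 10 genes. The highest value was 18.3 times the lowest for Gpnmb, 14.5 times for Cd163, 10.3 times for Trem2 and for Folr2, and 8.09 times for Apoe, against 2.82, 2.64, 3.01, 4.20 and 2.94 times in WT tumors. It was 2.42 against 1.99 times for Adgre1, and for Mrc1 it was narrower, at 3.23 against 3.81 times. Replicates 4, 7 and 8 were the 3 highest tumors of the group in 7 of the 10 genes. Short noncoding RNAs held 64.0%, 55.0% and 66.5% of their FPKM, and 61.5% in replicate 5, which was not among them. The part of this share in the levels was not tested. Replicate 4 had Trem2 at 327 FPKM and Gpnmb at 668 FPKM, and replicate 8 had Trem2 at 204 FPKM and Gpnmb at 313 FPKM. Replicate 2 had the lowest Trem2 and Apoe of the group, at 31.7 and 764 FPKM, and each of these 2 levels was within the range of the WT tumors.

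The sample identifiers in the descriptions of the day 28 tumors fell into 3 runs of consecutive numbers, and what a run stands for is not given in the sources used here. Of these run A held 7 of the tumors labelled PD-1cKO and none from WT mice, run B held 1 and 9, and run C held 2 and 1. Within run B the tumor labelled PD-1cKO had Trem2 at 204 FPKM against 11.0 to 33.0 FPKM in WT tumors, and Apoe at 6186 against 352 to 1034 FPKM. Within run C the 2 tumors labelled PD-1cKO had Trem2 at 35.2 and 43.6 FPKM against 22.6 FPKM in the WT tumor, Apoe at 1452 and 1957 against 599 FPKM, and Gpnmb at 36.5 and 60.4 against 32.5 FPKM. With the run as a covariate the log2 differences were 1.22 for Cd68, 2.24 for Trem2, 2.69 for Apoe and 2.19 for Gpnmb, and none was called, with adjusted p-values of 0.0257 to 0.0499. In runs B and C alone (3 against 10, chosen after seeing the data) they were 0.95, 1.71, 2.31 and 1.58, with adjusted p-values of 0.0493 to 0.0569.

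Relative to Adgre1, the same 3 lipid-associated genes were called higher in tumors labelled PD-1cKO, 3 of 9 genes beside 1.16% of 15074 genes. A share of 19.4% of all genes was called lower and none of the 9, with medians of 0.38 over the 9 genes and -0.72 over all genes. Trem2 per Adgre1 was 0.362 to 0.937 (median 0.547) in WT tumors and 0.871 to 3.76 (median 1.43) in tumors labelled PD-1cKO. Apoe per Adgre1 was 10.7 to 30.9 (median 13.7) and 20.7 to 73.7 (median 44.2), and Gpnmb per Adgre1 was 0.454 to 1.32 (median 0.804) and 1.02 to 7.70 (median 1.54). The ranges overlapped at their ends only through WT replicate 3 for Trem2 and Apoe, and through WT replicates 2 and 8 for Gpnmb. The log2 differences were 1.43 for Trem2 (SE 0.25, adjusted p = 0.00452), 1.50 for Apoe (SE 0.25, adjusted p = 0.00452) and 1.27 for Gpnmb (SE 0.31, adjusted p = 0.00608). Cd68 per Adgre1 was 1.16 ± 0.264 in WT tumors and 2.05 ± 0.601 in tumors labelled PD-1cKO (SD, n = 10 each), a log2 difference of 0.80 (SE 0.19, adjusted p = 0.00595) under the 2-fold limit.

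These relative calls lay close to the limit of 0.01. Without replicate 5 of the group labelled PD-1cKO, or without WT replicate 4, 6, 7 or 9, none of the 9 genes was called, at adjusted p-values of 0.0101 to 0.0126 for Trem2, Apoe and Gpnmb and log2 differences of 1.36 to 1.47 for Trem2 and 1.46 to 1.51 for Apoe. The call of Gpnmb was also lost without replicate 1, 4, 7 or 8 of the group labelled PD-1cKO or WT replicate 1, 3 or 8. Against Cd68 in place of Adgre1, Trem2 was 0.63 higher (adjusted p = 0.0126), Apoe 0.70 higher (adjusted p = 0.0175) and Gpnmb 0.47 higher (adjusted p = 0.12), so none of the 3 was called. Relative to Cd68, Spp1 was called lower at -1.05 (adjusted p = 0.00165), and Folr2 was at -0.97 (adjusted p = 0.0012), under 2-fold. With the run of identifiers as a covariate the relative differences were 1.65, 2.10 and 1.60 with adjusted p-values of 0.0662 to 0.0669. Mrc1 per Adgre1 was 1.23 in both groups on average, and Spp1 per Adgre1 was 2.15 in WT tumors and 1.93 in tumors labelled PD-1cKO, neither of them called relative to Adgre1.

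**Figure D3:**
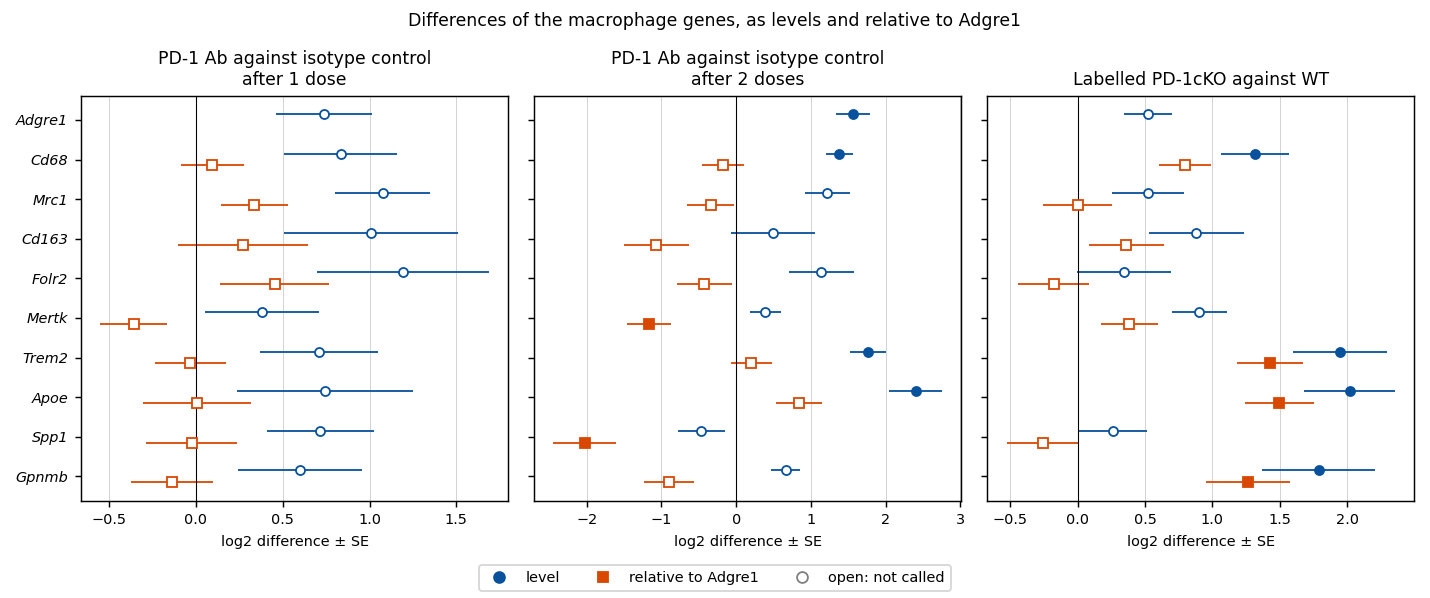
Log2 difference with its standard error for each gene in the 3 PD-1 comparisons, as the level (circles) and relative to Adgre1 (squares), with filled symbols where the gene was called. After 2 doses the level of Apoe is 2.40 higher and its ratio to Adgre1 0.84 higher, and in tumors labelled PD-1cKO Trem2, Apoe and Gpnmb are filled on both measures.

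The responses in the 2 models were compared in a fit of the 4 groups, as the difference after 2 doses of PD-1 Ab minus the difference in tumors labelled PD-1cKO. As levels, none of the 10 genes was called (0.0914% of 16404 genes were called by limma, and 2585 had an unadjusted p under 0.05). The contrast was 0.07 for Cd68 (SE 0.40), 0.38 for Apoe (SE 0.57) and -0.19 for Trem2 (SE 0.55), and the largest by adjusted p was 1.04 for Adgre1 (SE 0.31, adjusted p = 0.118). Relative to Adgre1, 2 of 9 genes were called lower after PD-1 Ab than under the PD-1cKO label, beside 3.95% of 16403 genes, and none was called higher, beside 0.0061% of them. They were Mertk at -1.56 (SE 0.35, adjusted p = 0.00563) and Gpnmb at -2.17 (SE 0.51, adjusted p = 0.00716). Spp1 (-1.77, adjusted p = 0.0219), Trem2 (-1.23, adjusted p = 0.0238) and Cd68 (-0.97, adjusted p = 0.025) had adjusted p-values under 0.05 without passing the limit of 0.01, and the medians were -1.23 over the 9 genes and -0.81 over all genes. At an adjusted p under 0.05, 19.3% of the 16403 genes were lower in this contrast. Each relative contrast is the level contrast less the 1.04 of Adgre1.

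The call of either gene in this contrast was lost without any of isotype control replicates 1, 2, 3 and 5 or PD-1 Ab replicates 1 to 4, at adjusted p-values of 0.011 to 0.0241. It was lost for Gpnmb alone without replicate 5 of the group labelled PD-1cKO or WT replicate 4, 5, 6, 7, 9 or 10, at 0.0103 to 0.012. Without PD-1 Ab replicate 5, Cd68 (-1.05), Mertk (-1.69), Spp1 (-2.19) and Gpnmb (-2.40) were called. Relative to Cd68, to Csf1r or to the mean of the 3 macrophage genes, none was called. The 2 models also differed in day, library scale and study arm, which cannot be told apart from the way PD-1 was blocked. The control tumors of the models differed in the ratios themselves, with Mertk per Adgre1 at 0.546 ± 0.0861 (SD, n = 5) in isotype control tumors after 2 doses and 0.226 ± 0.0803 (SD, n = 10) in WT tumors, Spp1 per Adgre1 at 9.52 ± 3.09 and 2.15 ± 0.606, and Mrc1 per Adgre1 at 0.384 ± 0.0773 and 1.23 ± 0.488.

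**Figure D4:**
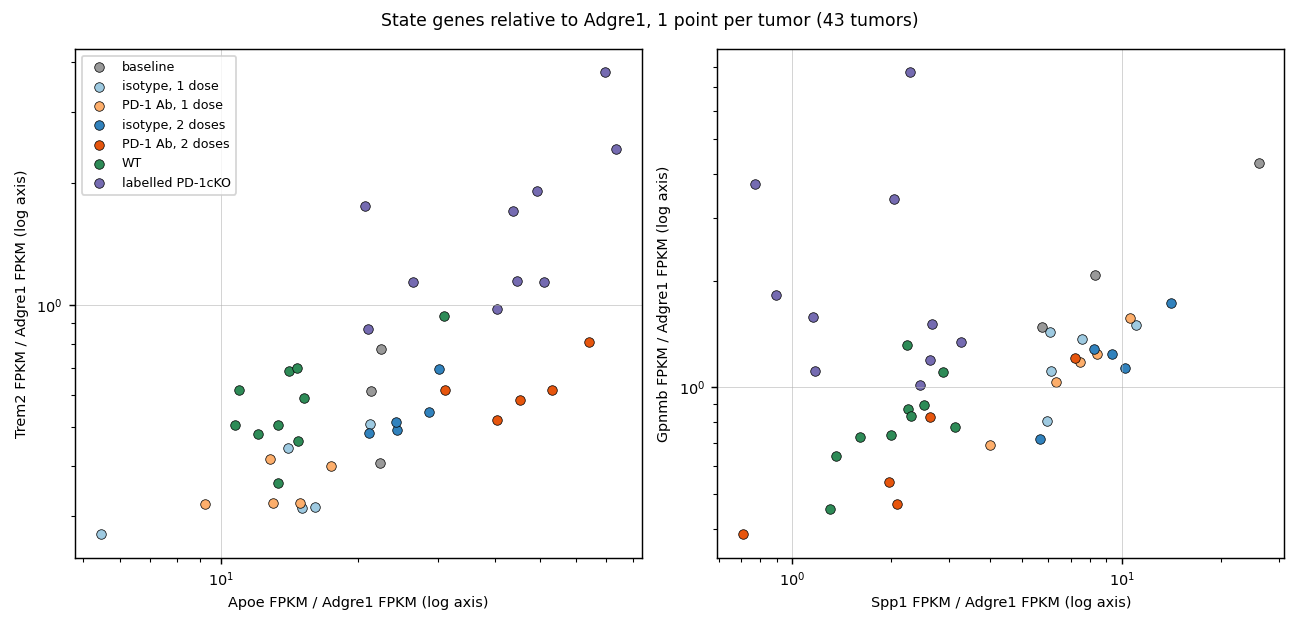
Trem2 against Apoe and Gpnmb against Spp1, each divided by Adgre1 of the same tumor, for the 43 tumors on log axes. Tumors labelled PD-1cKO reach 3.76 for Trem2, 7.70 for Gpnmb and 73.7 for Apoe per Adgre1. The PD-1 Ab-treated tumors after 2 doses reach 64.2 for Apoe, with Trem2 at no more than 0.807.

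Other genes of the same pathways were read from lists described by counts and medians, where the median over all genes was -0.04 after 2 doses and -0.20 in tumors labelled PD-1cKO. Of all genes tested, 5.03% and 4.20% were called higher, and 0.272% and 3.87% lower. After 2 doses of PD-1 Ab, 12 of 14 other macrophage markers were called higher and none lower, with a median log2 difference of 1.27. The highest were Lyz2 (1.78), lysozyme, and Ms4a7 (1.69), and the lowest called were Itgam (1.08), an integrin chain of myeloid cells, and Aif1 (1.24). In tumors labelled PD-1cKO 5 of 14 were called, among them Lyz2 (1.64), down to C1qa (1.04) and C1qb (1.12) of the complement C1q complex. Csf1r, the receptor of the macrophage growth factors, was at 115 against 40.0 FPKM after 2 doses (1.46, adjusted p = 0.00182) and at 141 FPKM in tumors labelled PD-1cKO against 71.8 FPKM in WT tumors (0.96, adjusted p = 0.000834, under 2-fold).

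Among 18 lipid-associated macrophage genes, 9 were called higher after 2 doses and 7 in tumors labelled PD-1cKO. The cholesterol exporters Abcg1 (2.46 and 1.91) and Abca1 (2.40 and 1.92) were at the top of the called genes in both, with the sterol-sensing receptor Nr1h3 at 2.08 and 1.37. The cathepsins Ctsb and Ctsd were called in both as well, at 1.22 and 1.12 after 2 doses and at 1.33 and 1.71 under the PD-1cKO label. Lgals3 was called at 1.13 under the PD-1cKO label, and Itgax (1.19) after 2 doses. The medians of the list were 1.15 and 1.05. The PD-1 Ab comparison and the PD-1cKO comparison share no samples.

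The receptors and partners of the members moved unevenly. Of the 18 partners of TREM2, APOE and osteopontin, 5 of 17 tested were called higher after 2 doses, and 4 of 18 higher and 1 lower in tumors labelled PD-1cKO. The medians were 0.42 and -0.11, with 8 of the 18 positive in the latter comparison. Tyrobp, the signalling adaptor of TREM2, rose by 1.35 and 1.27, and the kinase Syk by 1.36 and 1.08. Apoc2, a lipoprotein gene next to Apoe, rose by 2.12 and 1.92, Apoc4 by 2.20 under the PD-1cKO label, and Itga4, an integrin chain, by 1.79 after 2 doses. Itga9, another integrin chain, rose by 1.05 after 2 doses. Of the MERTK ligands and related genes, 1 of 8 was called after 2 doses, Dock2 (1.72), and 4 of 9 under the PD-1cKO label, namely Stab2 (1.63), the ligand Gas6 (1.56), the bridging protein Mfge8 (1.52) and Lrp1 (1.04).

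Genes of other macrophage states differed between the comparisons in the number called. Of 15 IFN-activated macrophage genes, 13 were called higher after 2 doses, from Ido1 (2.34) and Fcgr4 (2.26) to Slamf8 (1.17) and Cxcl10 (1.09), and 1 in tumors labelled PD-1cKO, Nos2 (1.20). Under the PD-1cKO label 10 of the 15 were nonetheless positive, with a median of 0.53, against 1.56 after 2 doses. In the contrast of the models 2 of these 15 genes were called higher, beside 0.0792% of 16404 genes. They were Il12b (2.27, adjusted p = 0.0012) and Fcgr4 (1.78, adjusted p = 0.00233). The median of the list was 1.26, against 0.23 over all genes tested, with the limits on that contrast given above. Of the resident-type and alternatively activated genes, 6 of 17 were called after 2 doses and 6 of 16 under the PD-1cKO label. Igf1 (2.52) and Ccl8 (2.19) led after 2 doses, and Pf4 (1.06) and Clec10a (1.79) were the lowest called. Chil3 (2.75) and Ccl8 (1.63) led under the PD-1cKO label, and Pf4 (1.05) and Stab1 (1.13) were the lowest called. After 1 dose no gene of any of these lists was called.

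Markers of other cell types also moved in both comparisons. All 6 T cell markers were called higher after 2 doses, where their summed level was 10.0 to 20.1 FPKM in controls and 37.6 to 148 FPKM after PD-1 Ab, and all 6 in tumors labelled PD-1cKO, at 9.32 to 35.9 FPKM in WT tumors and 24.3 to 84.0 FPKM. Fibroblast markers were called in 0 of 6 after 2 doses (sums of 865 to 2017 and 1229 to 2885 FPKM) and in 4 of 6 under the PD-1cKO label (1067 to 2272 and 2228 to 12424 FPKM). Adipocytes, which can express Apoe and Cd36, had summed markers of 1.48 to 19.2 and 6.77 to 148 FPKM after 2 doses (1 of 5 called), and of 0.833 to 24.5 and 0.941 to 315 FPKM in the other comparison (0 of 5 called). Cell cycle genes were called lower in 4 of 6 in tumors labelled PD-1cKO (414 to 604 and 71.9 to 438 FPKM) and in 0 of 6 after 2 doses (560 to 617 and 416 to 514 FPKM). Neutrophil markers were summed at 5.00 to 15.8 FPKM in WT tumors and 7.32 to 364 FPKM under the PD-1cKO label (3 of 6 tested called higher). No T cell, fibroblast or cell cycle marker was at 0 in any of these tumors, while the neutrophil gene Ngp was at 0 in 3 WT tumors, and the part of these cells in the results was not tested.

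The genes whose patterns were most like those of the members were sought over the 43 tumors, by Pearson correlation of log2 levels after subtracting each group mean, among 13228 genes that averaged 1 FPKM or more. Values of a pair come from the same library and the same piece of tumor, so genes of macrophages or of other cells in the piece can move with them. Adgre1 lay nearest to Ncf1 (r = 0.93), a subunit of the phagocyte oxidase, Nckap1l (0.92) and Sash3 (0.92), which are leukocyte genes. Cd68 lay nearest to Psap (0.93), the precursor of the saposins of lysosomes, Sirpa (0.92) and Abcg1 (0.91). Trem2 lay nearest to the lysosomal proteases Ctsb (0.95) and Ctsd (0.93) and to Dhrs3 (0.93), and Gpnmb to Ctsd (0.90), Sema3b (0.90) and Mfge8 (0.89). Apoe had Mmp23 (0.92), Pdlim4 (0.92) and Dkk3 (0.92) as its nearest genes. Whether macrophages or other cells of the tumor carried these transcripts, or that of Apoe, was not tested.

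The nearest genes of the 3 scavenger and endocytic receptors did not overlap with each other. Mrc1 lay nearest to F7 (0.85), Ccl8 (0.83) and Npl (0.82), Cd163 to Selenop (0.84), Clec10a (0.83) and Plxdc2 (0.82), and Folr2 to Stard8 (0.83), F13a1 (0.82) and Ccl11 (0.81). Mertk lay nearest to Atp10d (0.90), Cd38 (0.90) and Stard9 (0.89). Spp1 lay nearest to Ctsl (0.81), Ptgr1 (0.81) and 2010111I01Rik (0.74).

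Among the members themselves, Trem2 and Cd68 had the highest correlation within groups (r = 0.91), followed by Trem2 with Apoe (0.85), Cd68 with Apoe (0.85), Cd68 with Adgre1 (0.84) and Trem2 with Gpnmb (0.84). Spp1 stood apart with 0.09 to Adgre1, 0.16 to Apoe and 0.51 to Gpnmb. Mrc1 correlated with Mertk at 0.83 in the 23 tumors of the antibody arm and at 0.13 in the 20 tumors of day 28, and Gpnmb with Adgre1 at 0.38 and 0.82. These values are descriptions over tumors that share libraries and carry no test.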

How the data were processed

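RNA from 3 MC-38 cultures and 43 tumors was sequenced by the authors with a stranded total RNA kit after ribosomal depletion, aligned with OSA in Omicsoft Array Studio to mouse B38 and summarised over Ensembl gene models. The deposited values are FPKM, 1 column per sample. They are not counts, so read depth is unknown, no counting interval is given, and a count model such as DESeq2, which the study used, was not run. Of the gene identifiers 99.1% matched the GRCm38 annotation.

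Groups came from the sample labels, which do not say whether replicates are separate animals beyond their number, so p-values measure the spread between these samples. limma 3.58.1 in R 4.3.3 was fitted with a mean-variance trend to log2(FPKM + 0.1) over genes that averaged 0.5 FPKM or more in one or the other group, and fold changes on this scale understate those of low genes. A gene was called at a Benjamini-Hochberg adjusted p under 0.01 over all genes tested and a change of at least 2-fold. For values relative to Adgre1, the log2 level of Adgre1 of each sample was subtracted from all genes before the same fit. The fit was tested on simulated data. Python 3.11.15, numpy 2.4.6, pandas 2.3.3 and scipy 1.17.1 were used for the descriptions.

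The 10 genes were named in full, with the 2 highest and 2 lowest called genes of each pathway list and the 3 most correlated genes of each member; Csf1r, Nr1h3, Ctsb, Ctsd, Lgals3, Itgax, Syk and Tyrobp were named after their values were seen. Some list genes that this rule names are not reported here. The members and lists were chosen with earlier results of these data known. Alternatives were other scalings, pseudocounts, filters and references, array weights, the replicate block, the run of identifiers, other limits and leaving out each replicate. Same-numbered samples did not deviate together, with correlations of -0.21 to 0.16 over the comparisons, so replicate numbers were not taken to pair samples.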

Additional observations from a re-analysis of the deposited data

Results flagged for a closer look

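Of 60 sets examined, each of 1 gene in 1 group of 5 or 10 samples, 7 held a sample far from the others. A chance rate of about 1 in 20 holds for independent sets, and these sets share libraries, so the count cannot be set against it. Isotype control replicate 1 after 1 dose was the low sample for 4 genes, at 15.4 FPKM for Cd68, 4.48 for Mertk, 57.3 for Apoe and 8.42 for Gpnmb, and it is the library with 54.6% mitochondrial FPKM. Adgre1 was low in PD-1 Ab replicate 5 after 2 doses, at 35.4 FPKM, and in WT replicate 8, at 23.8 FPKM. Folr2 was low in isotype control replicate 4 after 2 doses, at 2.06 FPKM.

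Relative to Adgre1, the difference after 2 doses of PD-1 Ab minus that in tumors labelled PD-1cKO was tested in limma. At an adjusted p under 0.05, 5 of 9 genes were lower and none higher. Over all 16403 genes, 19.3% were lower and 0.0366% higher at that limit. Each relative contrast is the level contrast less the 1.04 of Adgre1, which was not called. The log2 contrast was -0.97 for Cd68, -1.56 for Mertk, -1.23 for Trem2, -1.77 for Spp1 and -2.17 for Gpnmb. Day, library scale and study arm differ between the models and cannot be told apart from the contrast.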

How the results depend on the processing

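Over all alternatives, 2250 values of the members kept their direction and side of the limit, 82 lost the call, 26 gained one and 66 turned their sign; the cause was not tested. The calls of Adgre1, Cd68, Trem2 and Apoe after 2 doses held in every alternative run. In tumors labelled PD-1cKO the 4 called levels became 0 with the run of identifiers as a covariate, 0 in runs B and C alone (chosen after seeing the data) and 7 at an adjusted p under 0.05 with no fold limit. All 7 were higher, beside 15.3% of 15075 genes higher and 28.3% lower at this limit. For baseline tumors, 0 calls became 1 with array weights and 1 at that looser limit, which 3.05% of 14967 genes passed. For the contrast of the models 0 became 1 with array weights.

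Relative to Adgre1, the 2 calls after 2 doses became 4 with array weights, 5 at the looser limit and 1 to 4 without single replicates. The 5 were of 9 genes, a smaller share than the 86.5% of 15061 genes that passed the looser limit. The 3 calls under the PD-1cKO label gave way to 1 call relative to Cd68, which was Spp1 lower and none of the 3, and became 1 relative to Csf1r (Apoe), 0 with the run covariate, 0 in runs B and C and 0 to 3 without single replicates. The 2 calls in the contrast became 0 relative to Cd68, to Csf1r or to the mean of the 3 genes, 0 with the run covariate, 1 with no filter, 5 at the looser limit and 0 to 4 without single replicates. In this contrast 19.4% of 16403 genes passed the looser limit. With the replicate number as a block, both the 3 calls and the 2 calls became 0, and no other count of calls moved by over 1.5 times; the numbers do not pair the samples.

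Signs turned as follows. Under the PD-1cKO label, Spp1 was -0.23 with the run covariate and -0.27 in runs B and C, where Folr2 was -0.27. In the contrast of levels, Cd68 was -0.14 with median-of-ratios and -0.021 with upper-quartile scaling and -0.049 to 0.23 without single replicates, Cd163 was 0.18 with array weights and -0.68 to 0.10 without single replicates, Trem2 was 0.46 and -0.35 to 0.058 likewise, and Apoe was -0.29 with the run covariate. Relative to Adgre1 after 1 dose, Apoe was -0.089 against Cd68, -0.096 against Csf1r, -0.060 against the mean of the 3, -0.49 with array weights and -0.31 to 0.18 without single replicates. Cd68 was -0.0066 against Csf1r and -0.014 to 0.18 without single replicates, Cd163 was -0.14 and Spp1 0.0015 at a pseudocount of 1, and Spp1 was 0.19 with array weights. Without single replicates Spp1 was -0.17 to 0.18, Trem2 -0.13 to 0.092 and Gpnmb -0.28 to 0.032.

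Under the PD-1cKO label relative to other genes, Cd163 was -0.43 against Cd68, -0.077 against Csf1r and -0.050 against the mean, and Mertk was -0.41, -0.056 and -0.029. Mrc1 was 0.18 and Spp1 0.093 with array weights, and Mrc1 was -0.13 to 0.10 without single replicates. In the relative contrast, Mrc1 was 0.63 against Cd68, 0.19 against Csf1r, 0.16 against the mean and 0.22 with the run covariate, Folr2 was 0.73, 0.29, 0.26 and 0.043, and Apoe was 0.32 against Cd68. Depth is unknown, so low levels such as those of Cd163 carry a counting error that could not be given.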
